A study of Mus musculus with 4 samples.

Results

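The cells described here are the Tnnt2-high cells among the GFP-labelled smooth muscle cells of the ascending aorta. They come from the Asc-GFP library, made from the ascending segment of mice aged 12 weeks that carried the Wnt1-Cre2 driver and the mT/mG reporter. In that reporter a cell makes tdTomato until Cre acts and eGFP afterwards, so eGFP marks cells with a history of Wnt1-Cre2 activity, the neural crest lineage. A cell was kept if it had at least 1000 detected genes, at most 10% of UMIs (unique molecular identifiers, each standing for 1 captured transcript) from mitochondrial genes, at least 10 Myh11 UMIs and at least 8 eGFP UMIs, which left 6137 of the 8845 Asc-GFP barcodes. Of these, 538 were chosen by a count of at least 3 Tnnt2 UMIs and are called Tnnt2-high, which is 8.77% of the kept cells, and 4573 had none and are called Tnnt2-zero. The whole series holds 29930 barcodes. Its other libraries are Arch-GFP (GFP-labelled cells of the aortic arch), Asc-RFP (cells of the ascending segment without the switch to GFP) and Root (the aortic root, with both colours), all of the same age, genotype and ITGA8+ sort, and with no treatment given. Each group is 1 library, the sources used here do not give the number of animals pooled in each, and the Cre history rests on 1 driver. No test between groups was therefore possible: intervals below cover counting error only and take no account of the spread between animals or between cells.

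Tnnt2 encodes cardiac troponin T, the subunit that ties the troponin complex to tropomyosin on the thin filaments of striated muscle. Smooth muscle contracts through myosin light chain phosphorylation and does not depend on troponin, but Tnnt2 marks the heart and its outflow tract during development. Des encodes desmin, the muscle intermediate filament protein, Psd a guanine nucleotide exchange factor for the small GTPase ARF6, and Gpc3 a glypican, a heparan sulphate proteoglycan anchored to the cell membrane. The smooth muscle of the ascending aorta has a dual embryonic origin, with neural crest cells and cells of the second heart field lying side by side. The question put to these cells was whether neural crest cells with Tnnt2 also carried Des, Psd, Gpc3 and other genes typical of Asc-RFP or Root cells.

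Tnnt2 chose the cells, so its higher level in them was fixed by the rule, while Des was measured apart from it. The bases around the start sites of both genes are shown, from 250 before to 50 after the site. They are on the plus strand of mm10 as RefSeq gives them for GRCm38.p6. The Tnnt2 window is chr1:135836084-135836383 and the Des window is chr1:75360042-75360341, and capitals mark every match to the motifs named next.
Tnnt2: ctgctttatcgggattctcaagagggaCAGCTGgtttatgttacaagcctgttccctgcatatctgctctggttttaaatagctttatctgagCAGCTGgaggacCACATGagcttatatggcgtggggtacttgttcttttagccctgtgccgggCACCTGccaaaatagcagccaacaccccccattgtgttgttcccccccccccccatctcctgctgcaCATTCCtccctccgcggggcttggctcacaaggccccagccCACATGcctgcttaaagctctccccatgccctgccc
Des: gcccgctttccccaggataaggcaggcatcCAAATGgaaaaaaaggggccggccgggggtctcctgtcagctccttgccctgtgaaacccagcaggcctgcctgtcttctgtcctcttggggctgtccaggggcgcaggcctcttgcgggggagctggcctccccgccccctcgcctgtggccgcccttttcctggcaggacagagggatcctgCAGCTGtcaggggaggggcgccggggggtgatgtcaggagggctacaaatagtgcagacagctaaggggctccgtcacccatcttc
The motifs searched on both strands were the MCAT element CATTCC, known for binding TEAD factors in cardiac troponin T promoters, the E-box CANNTG, the TATA box TATAAA, and the CArG box and MEF2 site by their usual consensus. The Tnnt2 window held 1 MCAT element, which 14.7% of 32817 mouse promoter windows of this length also held, and 5 E-boxes. The Des window held 2 E-boxes and no MCAT element. At least 1 E-box was present in 72.3% of all windows. The windows of Psd (chr19:46327107-46327406, minus strand) and Gpc3 (chrX:52613925-52614224, minus strand) held none of these motifs. No window of the 4 genes held a CArG box (1.63% of all windows), a MEF2 site (3.19%) or a TATA box (13.6%). A match is a description of the letters only.

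Tnnt2 itself chose the cells, and its values are given as a description. The median Tnnt2-high cell had 5 Tnnt2 UMIs as deposited, the highest had 55, and 89 cells had 10 or more. Just outside the threshold, 299 cells had 2 UMIs, and just inside it 152 cells had 3. The gene was thus low in most members and high in few of them. Levels were compared after thinning every cell at random to 8000 UMIs, which kept 521 Tnnt2-high, 884 intermediate (1 or 2 Tnnt2 UMIs) and 3864 Tnnt2-zero cells and left out 17, 142 and 709 shallower ones. On that scale Tnnt2 stood at 433.5 CPM (UMIs of a gene scaled to a common total per class; 95% counting interval 413.8 to 454.0) in Tnnt2-high cells. The corresponding class held 750 CPM in Asc-RFP, 847 in the GFP-labelled cells of Root, 1741 in the tdTomato cells of Root and 347 in Arch-GFP. Tnnt2-high cells made up 39.4% of Asc-RFP cells (1518 of 3849), 32.7% of Root GFP cells (199 of 608), 55.6% of Root tdTomato cells (1085 of 1951) and 2.63% of Arch-GFP cells (193 of 7347). Among the GFP-labelled cells the share was therefore highest in the root and lowest in the arch.

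As deposited, the Tnnt2-high cells were deeper than the Tnnt2-zero cells, with medians of 15006.5 and 12892 UMIs and of 3908 and 3589 detected genes. After thinning, the medians were 2733 and 2735 genes. Mitochondrial UMIs had medians of 4.97% and 5.08%, and eGFP 51 and 44 UMIs as deposited. A tdTomato UMI was found in 1 of the 538 Tnnt2-high and 5 of the 4573 Tnnt2-zero cells, against 93.8% of all Asc-RFP cells. Female cells were 69.6% (95% interval 65.0 to 74.0) of Tnnt2-high and 71.4% (69.9 to 73.0) of Tnnt2-zero cells whose sex could be read from Xist and Y-linked genes. Cells with UMIs of both, a possible sign of doublets, were 7.29% (5.21 to 9.87) and 4.89% (4.23 to 5.62) of the thinned cells. Of the Tnnt2-high cells, 4 share a barcode sequence with another library, as do 30 Tnnt2-zero cells. What these differences contribute to the ratios below was not tested, but for the values given beside them.

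Des, the desmin gene, stood at 72.5 CPM (64.5 to 81.1; 302 UMIs) in Tnnt2-high cells and 40.6 CPM (38.4 to 42.9; 1256 UMIs) in Tnnt2-zero cells. The log2 ratio was 0.83 (95% counting interval 0.65 to 1.02). A Des UMI was found in 15.9% (12.9 to 19.4; 83 of 521) of Tnnt2-high and 10.5% (9.51 to 11.5; 404 of 3864) of Tnnt2-zero cells. Both the level and the share of cells were thus higher beyond counting error, though most Tnnt2-high cells showed no Des at this depth. By Tnnt2 UMIs, the Des level was 43.1 CPM (37.5 to 49.3) in cells with 1, 41.4 (33.2 to 50.9) with 2 and 48.6 (36.7 to 63.1) with 3. It was 85.4 (70.1 to 103) in cells with 4 or 5 and 78.8 (66.2 to 93.1) in cells with 6 or more. Cells just inside the threshold did not differ from those just outside it beyond these intervals, and the higher Des level lay in cells with at least 4 Tnnt2 UMIs.

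The higher Des level lay in female cells. In 281 female Tnnt2-high cells Des stood at 89.4 CPM against 39.0 in 2308 female Tnnt2-zero cells, a log2 ratio of 1.20 (0.96 to 1.42). In male cells the values were 40.5 CPM in 142 Tnnt2-high and 48.0 in 1046 Tnnt2-zero cells, a log2 ratio of -0.25 (-0.72 to 0.20). A Des UMI was found in 47 of the 281 female and 13 of the 142 male Tnnt2-high cells. In Asc-RFP the log2 ratio was 1.10 (0.98 to 1.21) in female and 0.81 (0.70 to 0.91) in male cells. In Arch-GFP it was 1.42 (0.99 to 1.82) in male cells and -0.96 (-2.59 to 0.28) in female cells, where the Tnnt2-high class had only 39 cells and 5 Des UMIs. Sex stands here for different animals of a pooled library, so sex and animal cannot be told apart, and the difference between the sexes was not tested.

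Psd and Gpc3 did not differ beyond counting error. Psd, the ARF6 exchange factor, stood at 7.20 CPM (4.86 to 10.3; 30 UMIs) in Tnnt2-high and 4.79 CPM (4.05 to 5.62; 148 UMIs) in Tnnt2-zero cells, a log2 ratio of 0.59 (-0.03 to 1.16). It was found in 5.18% (3.44 to 7.45) and 3.52% (2.96 to 4.15) of cells. Gpc3, the glypican, stood at 15.8 CPM (12.2 to 20.1; 66 UMIs) and 13.1 CPM (11.9 to 14.5; 406 UMIs), a log2 ratio of 0.27 (-0.13 to 0.65), and was found in 10.2% (7.71 to 13.1) and 9.11% (8.22 to 10.1) of cells. These intervals leave room for no difference and, for Psd, for a level over 2-fold higher. Along the Tnnt2 UMIs, Psd was 10.3 CPM (6.09 to 16.2; 18 UMIs) in cells with 6 or more and between 3.72 and 5.21 CPM in cells with 1 to 5. Gpc3 ran between 12.0 and 19.1 CPM with no order along Tnnt2. In female cells alone the Psd log2 ratio was 0.95 (0.22 to 1.61; 23 UMIs in Tnnt2-high cells) and in male cells 0.40 (-1.33 to 1.79; 5 UMIs), so its interval was clear of 0 in female cells. Gpc3 had 0.36 (-0.16 to 0.84) in female and 0.25 (-0.68 to 1.07) in male cells.

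**Figure D1:**
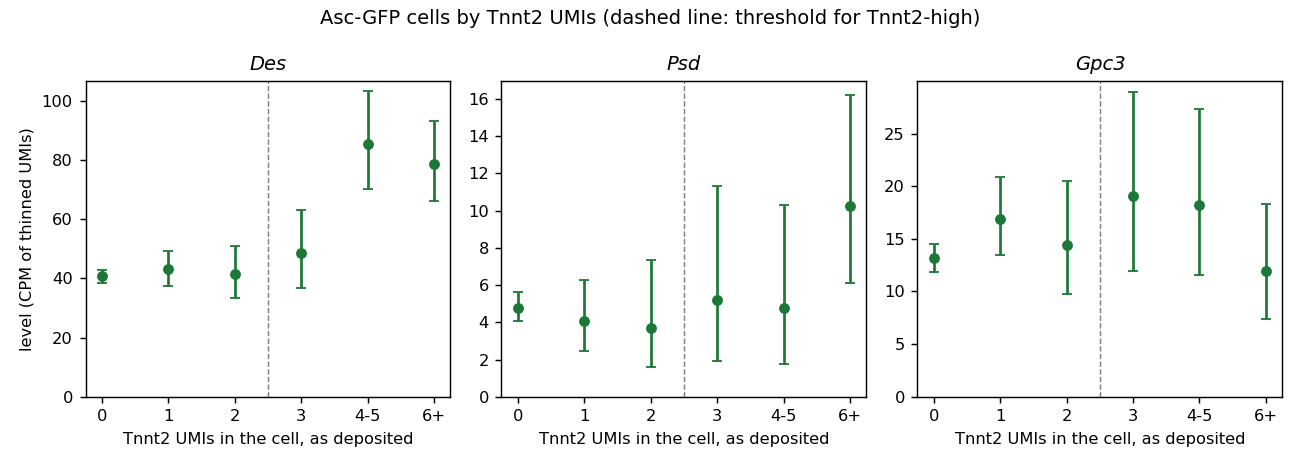
Levels of Des, Psd and Gpc3 in Asc-GFP cells by the number of Tnnt2 UMIs in the cell as deposited, in CPM of UMIs after thinning to 8000 per cell. Points are sums over all cells of a bin, bars are 95% counting intervals and the dashed line is the threshold for Tnnt2-high cells; Des reaches 85.4 and 78.8 CPM in the bins from 4 UMIs up, while the Gpc3 intervals overlap throughout.

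None of these 3 genes came near its level in the cells without GFP. Among Asc-RFP cells Des stood at 437 CPM (425 to 449) in the Tnnt2-high and 237 CPM (227 to 247) in the Tnnt2-zero class. Asc-RFP cells with no Tnnt2 UMI at all thus had more Des than the Tnnt2-high neural crest cells, with 72.5 CPM. Psd stood at 90.0 CPM (84.6 to 95.7) and 35.6 CPM (31.9 to 39.7) in the same Asc-RFP classes, and Gpc3 at 71.1 CPM (66.3 to 76.2) and 41.6 CPM (37.6 to 46.0). The order was the same in the root: its tdTomato cells with no Tnnt2 UMI had 193 CPM of Des (179 to 209), 42.6 of Psd (36.0 to 50.1) and 44.1 of Gpc3 (37.3 to 51.7). Root GFP cells lay nearer to those of the ascending segment, with 57.5 CPM of Des (46.1 to 71.0), 13.9 of Psd (8.60 to 21.2) and 23.1 of Gpc3 (16.1 to 32.2) in their Tnnt2-high class. As deposited, tdTomato UMIs were found in 51 of the 199 (25.6%; 212 UMIs) Tnnt2-high and 36 of the 247 (14.6%; 49 UMIs) Tnnt2-zero Root GFP cells, and their part in these levels was not tested. In the plot of levels by Tnnt2 class, the populations with and without GFP lie farther apart for Des and Psd than the Tnnt2 classes within them. These are levels of different libraries, with 1 library each, so library and lineage cannot be told apart between the ascending samples.

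**Figure D2:**
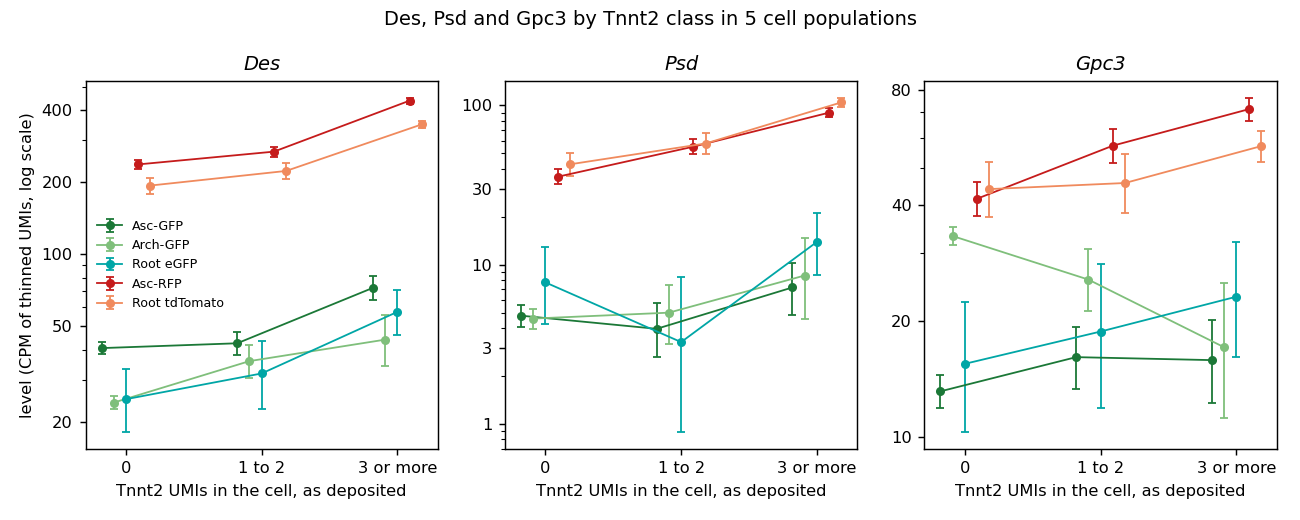
Levels of Des, Psd and Gpc3 (CPM of thinned UMIs, log axis) by Tnnt2 UMIs in the cell, in the GFP-labelled cells of the ascending segment, arch and root and the cells without GFP of the ascending segment and root. Points are sums over cells, bars 95% counting intervals; for Des the Tnnt2-high Asc-GFP cells stand at 72.5 CPM, under the 237 CPM of Tnnt2-zero Asc-RFP cells.

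The same contrast was then made within the other cell populations, which the choice of members did not use. For Des, the log2 ratio of Tnnt2-high against Tnnt2-zero cells was 0.88 (0.81 to 0.96) in Asc-RFP, 0.87 (0.49 to 1.23) in Arch-GFP, 1.21 (0.67 to 1.76) in Root GFP and 0.85 (0.72 to 0.97) in Root tdTomato cells. The intervals of all 4 overlap that of Asc-GFP (0.83; 0.65 to 1.02), at levels of the Tnnt2-zero class between 24.1 CPM (Arch-GFP) and 237 CPM (Asc-RFP). For Psd the log2 ratio was 1.34 (1.16 to 1.52) in Asc-RFP and 1.29 (1.04 to 1.55) in Root tdTomato, and 0.90 (-0.04 to 1.71) in Arch-GFP and 0.84 (-0.20 to 1.93) in Root GFP, where 13 and 21 UMIs in the Tnnt2-high class gave wide intervals. For Gpc3 it was 0.77 (0.60 to 0.95) in Asc-RFP and 0.37 (0.10 to 0.64) in Root tdTomato, 0.58 (-0.18 to 1.35) in Root GFP and -0.96 (-1.58 to -0.40) in Arch-GFP. By CPM, Gpc3 was thus lower with Tnnt2 in the arch, higher in the cells without GFP, and within counting error in the Asc-GFP cells. A Gpc3 UMI was found in 11.6% (7.40 to 17.0) of Tnnt2-high and 13.0% (12.1 to 14.0) of Tnnt2-zero thinned arch cells. The intervals of these shares overlap, and the Gpc3 level of Tnnt2-high arch cells rests on 26 UMIs.

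Of 521 thinned Tnnt2-high cells, 0 had a UMI of all of Des, Psd and Gpc3, which allows a share of up to 0.576% (3 counts). Each of the genes was found in only 5.18 to 15.9% of these cells, so the count says little on whether they occur together at this depth. Among the 884 intermediate cells 1 (0.113%) had all 3. The count was also 0 among 3864 Tnnt2-zero cells, against 145 of 1418 (10.2%, 8.70 to 11.9) Tnnt2-high and 46 of 1165 (3.95%, 2.91 to 5.23) Tnnt2-zero Asc-RFP cells. A pair of the genes was found in 14 (2.69%, 1.48 to 4.47) Tnnt2-high and 64 (1.66%, 1.28 to 2.11) Tnnt2-zero Asc-GFP cells. None of them was found in 71.4% (67.3 to 75.2) of the Tnnt2-high and 78.6% (77.2 to 79.9) of the Tnnt2-zero cells, and in 22.4% of Tnnt2-high Asc-RFP cells.

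**Figure D3:**
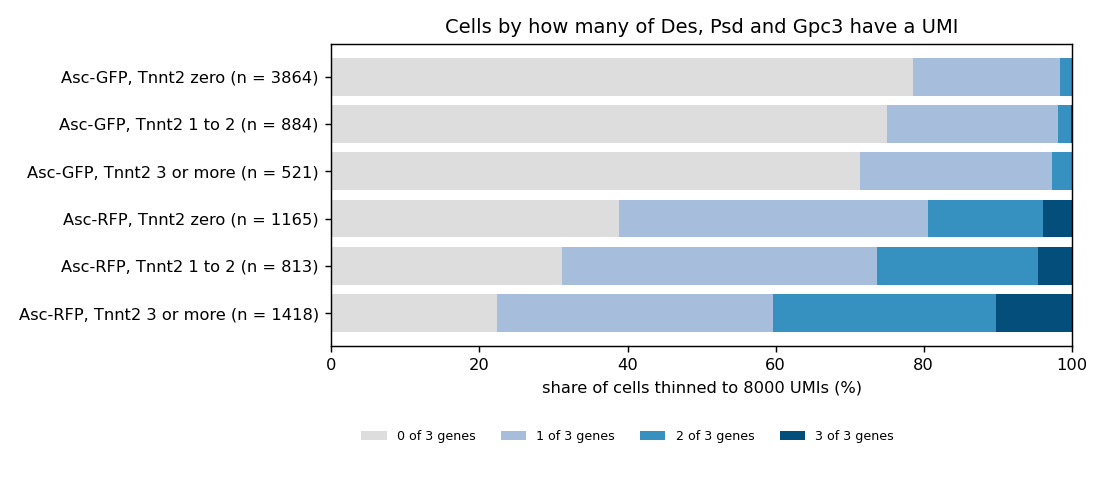
Share of cells (%) with a UMI of 0, 1, 2 or 3 of Des, Psd and Gpc3 after thinning to 8000 UMIs, by Tnnt2 class in Asc-GFP and Asc-RFP; n is the number of cells. Dark segments, cells with all 3 genes, make up 10.2% of Tnnt2-high Asc-RFP cells and 0% of Tnnt2-high Asc-GFP cells.

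Across all genes the Tnnt2-high and Tnnt2-zero cells differed little. Of 7776 genes with a mean of at least 10 CPM over the 2 classes, Tnnt2 and the reporters left out, 38 (0.489%) had a log2 ratio of at least 0.5 and 37 (0.476%) one of -0.5 or less, with a median of -0.0023. This is a rule of size, not a test, and the numbers moved with the thinning: with another random seed and with no thinning the higher Root genes counted below were 9, not 14.

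Des was among the 12 genes farthest above 0 by the bound of their interval. Apoe, a lipid carrier, stood at 275.7 CPM in Tnnt2-high and 163.7 in Tnnt2-zero cells, a log2 ratio of 0.75 (0.66 to 0.84). Cp, which encodes the copper-carrying ferroxidase ceruloplasmin, stood at 15.8 and 6.70 CPM (1.24; 0.82 to 1.65). Ephx2, the soluble epoxide hydrolase that degrades fatty acid epoxides, stood at 14.2 and 6.31 CPM (1.17; 0.72 to 1.59). All 3 had ratios above 0 in both sexes: in female and male cells the log2 ratio was 0.72 and 1.03 for Apoe, 1.27 and 2.08 for Cp and 1.27 and 1.07 for Ephx2, the last with an interval of -0.27 to 2.24 from 8 UMIs in male cells.

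Sfrp1, a secreted Wnt antagonist, stood at 22.8 and 13.5 CPM (log2 ratio 0.75; 0.42 to 1.08). Igfbp4, a binding protein of insulin-like growth factors, stood at 84.9 and 58.7 CPM (0.53; 0.36 to 0.70). Its log2 ratio was 0.63 (0.41 to 0.85) in female and 0.18 (-0.20 to 0.54) in male cells. Igfbp2, of the same family, stood at 34.1 and 19.2 CPM (0.83; 0.56 to 1.10), with opposite signs in the sexes: 1.62 (1.18 to 2.05) in female and -0.61 (-1.21 to -0.06) in male cells, a difference that was not tested.

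The remaining genes of the 12 were Vcam1, Art3, Elmo1, Pcdh9 and Tmem204. Vcam1, the adhesion molecule for leukocyte integrins, stood at 39.3 and 13.5 CPM (log2 ratio 1.54; 1.27 to 1.80), but 71 of its 164 UMIs in Tnnt2-high cells came from 1 cell. Without the cells that held over 20% of a gene's UMIs its log2 ratio was 0.83 (0.49 to 1.16). Art3, of the mono-ADP-ribosyltransferase family, stood at 40.5 and 24.7 CPM (0.72; 0.47 to 0.96). Elmo1, an adaptor in Rac activation, Pcdh9, a protocadherin, and Tmem204, a membrane protein, had log2 ratios of 0.81, 0.83 and 0.90 at 13.0 to 15.1 CPM. These are low levels, near 60 UMIs summed over the 521 cells.

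The 12 genes farthest below 0 were led by Lgals3. It encodes a galectin known from macrophages and from smooth muscle cells that lose their contractile state, and stood at 12.2 CPM in Tnnt2-high and 22.5 in Tnnt2-zero cells, a log2 ratio of -0.88 (-1.32 to -0.46). Rgs5, which dampens G protein signals and is known as a pericyte and arterial smooth muscle gene, stood at 62.9 and 92.4 CPM (-0.56; -0.74 to -0.37). Mia, a secreted protein of cartilage and melanoma cells, stood at 37.7 and 53.6 CPM (-0.51; -0.75 to -0.27). All 3 were lower in Tnnt2-high cells of the pooled sexes, and the values by sex for Lgals3 were -0.50 (-1.10 to 0.05) in female and -1.35 (-2.24 to -0.58) in male cells. For Rgs5 they were -0.69 (-0.93 to -0.46) and -0.56 (-1.08 to -0.08), and for Mia -0.42 (-0.72 to -0.13) and -0.31 (-0.89 to 0.22). Gldn, an extracellular protein of nodes of Ranvier in peripheral nerve, stood at 22.3 and 35.6 CPM, a log2 ratio of -0.67. Meis3, a homeobox gene, had -0.73 (-1.27 to -0.23). Abra, Lancl3, Ccdc42, Fam124a, Ccdc9b, Mcrip2 and Cdk16 made up the list, with log2 ratios from -0.75 to -0.49.

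**Figure D4:**
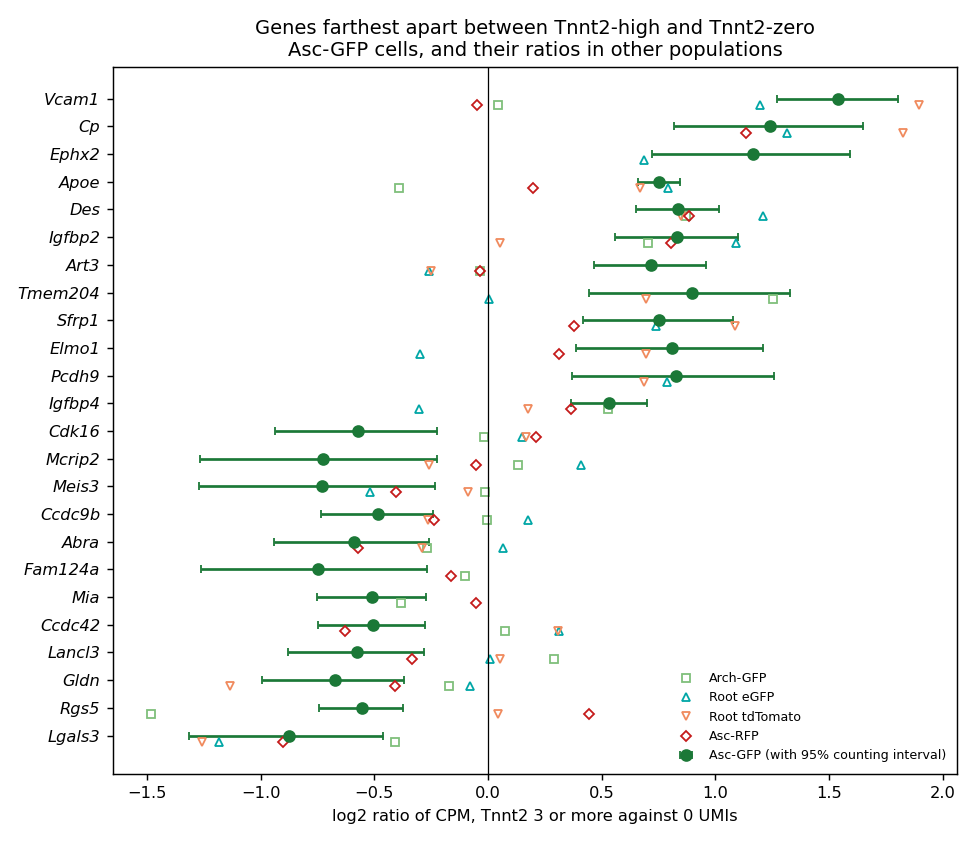
Log2 ratio of CPM in Tnnt2-high against Tnnt2-zero cells for the 12 genes farthest above and the 12 farthest below 0 in Asc-GFP. Filled points with bars are Asc-GFP with 95% counting intervals, by which the genes were chosen, and open symbols the other 4 populations where the gene has a mean of at least 10 CPM; open symbols of the higher genes lie mostly right of 0 in the root, those of the lower genes on both sides.

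The other libraries give values of these 24 genes in cells that did not choose them. Of the 12 higher genes, 8 of 11 measured in Root tdTomato cells also had a log2 ratio of at least 0.5 with Tnnt2, where 2.65% of all genes did: Vcam1, Cp, Apoe, Des, Tmem204, Sfrp1, Elmo1 and Pcdh9. In Root GFP cells it was 8 of 12, where 5.16% of all genes did, and the median was 0.76. The Tnnt2-high Root GFP cells also held more tdTomato, 25.6% of them with a UMI against 14.6%, whose part in this count was not tested. In Arch-GFP it was 4 of 7 (2.1% of all genes) and in Asc-RFP 3 of 9 (0.723% of all genes), namely Cp, Des and Igfbp2. The minimum of 10 CPM was set on the mean of both classes. Tmem204, counted in Arch-GFP, was at 4.73 and 6.90 CPM in female and male Tnnt2-zero cells there. In Asc-GFP, Cp, Ephx2, Elmo1, Pcdh9 and Tmem204 were under 10 CPM in Tnnt2-zero cells. Such genes were measured only through the class where they were high, and these counts are not read as support. Among the higher genes, Des was past 0.5 in all 4 other populations. Of the 12 lower genes, few were 0.5 or more lower elsewhere: 3 of 12 in Asc-RFP (0.516% of all genes), 1 of 12 in Arch-GFP (4.1%), 2 of 9 in Root GFP (8.25%) and 2 of 10 in Root tdTomato cells (2.54%). Lgals3 was the gene lower in 3 of these 4 populations.

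Genes typical of the root and of Asc-RFP were looked up by lists drawn from the other libraries, with no Asc-GFP cell used. Genes at least 2-fold higher in Asc-RFP than in Arch-GFP numbered 18, of which 15 were measured here. Gpc3 was not on the list, and Psd was on it but under the minimum level. Of these, 3 were at least 0.5 higher in Tnnt2-high cells (20%, against 0.489% of all genes) and none was 0.5 lower, with a median log2 ratio of 0.25. The 3 were Des, Cp and Igfbp2. Cp was under 10 CPM in Tnnt2-zero cells and so was measured only through the class where it was high. In female and male cells the log2 ratios were 1.20 and -0.25 for Des, 1.62 and -0.61 for Igfbp2 and 1.27 and 2.08 for Cp. Dcn, a small leucine-rich proteoglycan, had 0.36 (0.02 to 0.69), Rab6b, a Golgi GTPase, 0.44 (0.05 to 0.81) and Tpd52l1 0.44 (0.13 to 0.75). Aspn, another leucine-rich proteoglycan and the most abundant of the named genes of this list after Des in Asc-RFP, had -0.10 (-0.24 to 0.03), and Pln, which encodes phospholamban, 0.09 (-0.27 to 0.43). Most measured genes of the Asc-RFP list thus lay within 0.5 in Tnnt2-high neural crest cells. The count of 3 is a description and is not read as support.

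Genes at least 2-fold higher in Root tdTomato than in Asc-RFP cells numbered 71, with 42 measured. Of these, 14 (33.3%, against 0.489% of all genes) were at least 0.5 higher in Tnnt2-high cells and none was 0.5 lower, with a median log2 ratio of 0.18. With another random seed the count was 9 of 39, and with a mean of at least 20 CPM it was 7 of 21. Of the 14, 4 (Cp, Tmem204, Sdc3 and Pcdh9) were under 10 CPM in Tnnt2-zero cells and so were measured only through the class where they were high. The count is a description and is not read as support. The 14 included Cp, Apoe, Art3, Sfrp1, Tmem204, Pcdh9, Igfbp4, Vcam1 and Sdc3, a syndecan, with 0.50 (0.05 to 0.93). Other root genes stood near or below 0. Sncg, which encodes gamma-synuclein, had 0.07 (-0.06 to 0.20) and Notch3, a receptor of arterial smooth muscle, 0.07 (-0.23 to 0.37). Bmp2, a bone morphogenetic protein, had -0.41 (-0.79 to -0.04) and Olfml2a, of the olfactomedin-like family, -0.36 (-0.74 to 0.00). Below the minimum of 10 CPM, Corin, the protease that activates natriuretic peptide precursors, stood at 4.80 CPM (20 UMIs) and 1.10 CPM (34 UMIs), a log2 ratio of 2.13 (1.25 to 2.96). Cd34, a sialomucin of progenitor and endothelial cells, stood at 11.0 and 3.69 CPM (1.58; 1.05 to 2.09), and Col8a1, a short-chain collagen, at 7.20 and 2.81 CPM (1.35; 0.70 to 1.97). Others under the minimum were not higher: Rgs17, a regulator of G protein signals, stood at 2.16 and 2.23 CPM (-0.05; -1.24 to 0.96) and Cpne8, a copine, at 8.16 and 8.51 CPM (-0.06; -0.62 to 0.46). Lyz2 had 0 UMIs in Tnnt2-high and 5 in Tnnt2-zero cells, but it is a macrophage marker. The 11 macrophage markers summed to 91.1 CPM over all Root tdTomato and 6.88 over all Asc-RFP cells. Lyz2 is therefore not read as a gene of root smooth muscle, and the part of macrophage RNA in the Root list was not tested. The tdTomato cells of the root against Arch-GFP gave 89 genes, 60 measured, of which 13 were higher (21.7%, against 0.489% of all genes) and none lower, with a median of 0.14. Cp, also on this list, was again measured only through the class where it was high, and this count is not read as support either.

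The opposite list, genes at least 2-fold higher in Arch-GFP than in Asc-RFP, numbered 60 with 44 measured. Of these, 3 were at least 0.5 lower in Tnnt2-high cells (6.82%, against 0.476% of all genes) and 2 were at least 0.5 higher (4.55%), with a median of -0.02. Mia, Rgs5 and Ccdc42 were the lower genes. The count of lower genes was 1 with another random seed and 0 with Tnnt2-high set at 2 or more UMIs. Summed per cell class, the Root list of 71 genes came to 1715 CPM in Tnnt2-high and 1340 CPM in Tnnt2-zero cells. It came to 3443 CPM over all Root tdTomato and 1138 over all Asc-RFP cells, a gap fixed by the choice of the list. Over cells that did not choose the list it came to 2985 CPM in Root GFP and 1318 in Arch-GFP. The Asc-RFP list of 18 genes came to 602 and 537 CPM in Tnnt2-high and Tnnt2-zero cells. It came to 1307 CPM over all Asc-RFP and 364 over all Arch-GFP cells, again a gap fixed by the choice. Of the Tnnt2-high cells 14.2% reached the median Asc-RFP cell on that list, as did 9.99% of the Tnnt2-zero cells.

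**Figure D5:**
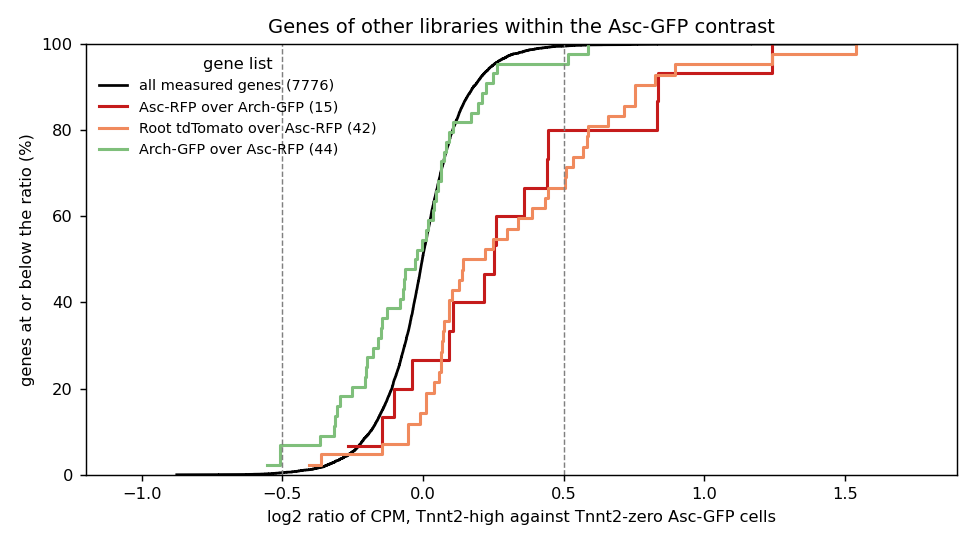
Cumulative share of genes (%) by their log2 ratio in Tnnt2-high against Tnnt2-zero Asc-GFP cells, for all measured genes and 3 lists drawn from the other libraries; numbers in brackets are measured genes and dashed lines mark the size of 0.5. The Root and Asc-RFP lists lie to the right of all genes, with medians of 0.18 and 0.25, and the Arch-GFP list close to them, with a median of -0.02.

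The contractile programme was alike in both classes within the size used. All 12 smooth muscle markers were detected in Tnnt2-high cells and summed to 52309 CPM against 52127 CPM, and 27 of 27 contractile apparatus genes lay within 0.5. Over all measured genes 0.489% were at least 0.5 higher and 0.476% at least 0.5 lower, so nearly all genes lay within it. Counts of 0 in the lists here are near that share and are not read as results about those genes. The farthest of these was Actg2, enteric smooth muscle actin, with 309.0 and 244.0 CPM (log2 ratio 0.34; 0.25 to 0.43). Tagln, which encodes transgelin, had 0.10 (0.08 to 0.11). Of 10 measured sarcomere and troponin genes 1 was at least 0.5 higher, namely Tnnt1, slow skeletal troponin T, with 12.7 and 7.51 CPM (0.76; 0.30 to 1.20), and none was lower. Tnnt1 was under 10 CPM in Tnnt2-zero cells and so was measured only through the class where it was high. Myl4, the atrial light chain, had 0.34 (-0.05 to 0.72). Other intermediate filament genes stayed near 0, Nes with 0.07 (-0.07 to 0.21) and Lmna with -0.06 (-0.14 to 0.01). So did the other measured ARF exchange genes (0 of 6 past 0.5 either way) and the glypicans Gpc6 (0.02; -0.10 to 0.13) and Gpc4 (-0.11; -0.47 to 0.22).

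Regulators of heart and neural crest identity lay within 0.5, with 0 of 11 and 0 of 6 measured genes past it. Over all measured genes 0.489% were higher and 0.476% lower by this size. Counts of 0 in the short lists of this paragraph are near that share and are not read as results about those genes. Tbx18, a T-box factor of the sinus venosus and epicardium, was the farthest, with 47.3 and 36.2 CPM (0.39; 0.16 to 0.61). Twist1 had 0.19 (-0.09 to 0.47), Ets1 -0.25 (-0.63 to 0.11) and Msx1 -0.12 (-0.58 to 0.32). Signalling genes mostly lay within the size: 0 of 19 TGF-beta, 0 of 12 BMP and 0 of 6 Notch genes were past 0.5, and of 10 Wnt genes Sfrp1 was the 1 that was higher. Of the other secreted Wnt inhibitors, Sfrp2 had -0.21 (-0.31 to -0.10) and Wif1 -0.19 (-0.30 to -0.08). Under the minimum level, Frzb stood at 9.84 and 5.18 CPM (0.93; 0.39 to 1.43) and Sfrp4 at 5.76 and 3.43 CPM (0.75; 0.04 to 1.40), so these inhibitors lay on both sides of 0. In the matrix, Ltbp2, which binds fibrillin microfibrils, was the 1 of 16 elastic fibre genes past the size, with 55.2 and 38.6 CPM (0.52; 0.31 to 0.72). Of 14 collagen genes 0 were past it, with Col3a1 at -0.20 (-0.24 to -0.16) and a list median of -0.13. Col4a4, a basement membrane collagen not on that list, stood at 21.6 and 13.7 CPM (0.66; 0.31 to 0.99). Among 9 measured genes of modulated smooth muscle, Vcam1 and Timp1 (0.57; 0.14 to 0.98) were higher and Lgals3 lower. Without the cells that held over 20% of a gene's UMIs, Timp1 had 0.35 (-0.12 to 0.79), within the size. Of 18 immediate-early genes 0 were past 0.5, with Egr1 at 0.28 (0.11 to 0.43) and Fos at -0.27 (-0.44 to -0.10). Genes of this group, which tissue dissociation can raise, lay more often below 0, with 6 of 18 above it and a median of -0.09. Without the cells that held over 20% of a gene's UMIs, Fosb had -0.83 (-1.39 to -0.32), past the size.

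Markers of most other cell types were low in both classes, while the fibroblast and pericyte sums were not low and were lower in Tnnt2-high cells. The 15 cardiomyocyte markers summed to 113 CPM in Tnnt2-high and 105 CPM in Tnnt2-zero cells, with 4 of them (Myl3, Myl7, Nppa and Mybpc3) at 0 in the Tnnt2-high cells. Most of this sum came from Ryr2, the ryanodine receptor, with 53.7 and 55.9 CPM, and from Pln and Myl4. Actc1, cardiac alpha-actin, had 25 thinned UMIs in Tnnt2-high and 40 in Tnnt2-zero cells, a log2 ratio of 2.21 (1.43 to 2.97), but 24 of its 42 deposited UMIs in Tnnt2-high cells came from 1 cell. Without the cells that held over 20% of a gene's UMIs the interval of its log2 ratio, -0.45 to 2.24, held 0. The 11 macrophage markers summed to 0.480 and 0.712 CPM, with 9 of them at 0 in Tnnt2-high cells, Ptprc and Lyz2 among these. The 10 endothelial markers summed to 37.4 and 38.8 CPM, with 5 of them (Cdh5, Tie1, Kdr, Emcn and Cldn5) at 0. Of the others, Pecam1 was detected in both classes at 24.0 and 26.2 CPM (-0.13; -0.44 to 0.17) and Esam at 12.5 and 11.5 CPM (0.12; -0.33 to 0.54). The 8 glial and Schwann markers summed to 3.12 and 2.26 CPM with Sox10 at 0, and the 8 mesothelial markers to 0.240 and 0.0323 CPM. The 12 fibroblast markers summed to 3679 (3620.5 to 3737.2) and 4134 (4111 to 4157) CPM, most of it collagen, with Dpt, Pi16 and Scara5 at 0. Not all members followed the sum: of 5 measured, 1 had a log2 ratio above 0, Dcn. Pdgfra and Lum, without the cells that held over 20% of a gene's UMIs, had 0.58 (-0.03 to 1.14) and 0.46 (-1.27 to 1.86). Both intervals held 0, and Clec3b had 0 UMIs in Tnnt2-high and 11 in Tnnt2-zero cells by the same rule. The 8 pericyte markers summed to 607 (584 to 631) and 688 (679 to 697) CPM, Rgs5 being the 1 of 6 measured that was over 0.5 lower.

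Single UMIs of a gene can also come from free RNA in the droplet. At 4000 UMIs per cell, 51 macrophage-like cells of Root, taken as lacking these genes, had a Tnnt2 UMI in 13.7%, a Des UMI in 7.84%, a Psd UMI in 1.96% and a Gpc3 UMI in 7.84% of cells. A Myh11 UMI was found in 41.2% of them, and whether some were doublets with muscle cells was not tested. At the same depth, Des was found in 11.6% of Tnnt2-high and 7.47% of Tnnt2-zero Asc-GFP cells, Psd in 2.61% and 1.85%, and Gpc3 in 5.22% and 5.04%. As deposited, these cells had medians of 10085, 15006.5 and 12892 UMIs. Only 1 such macrophage-like cell was found in Asc-GFP, so its own background could not be measured. In 21 macrophage-like cells of Asc-RFP at 4000 UMIs, Tnnt2 was found in 9.52%, Des in 14.3% and Psd and Gpc3 in 0%. The exact intervals of the Root cells are wide, 2.18 to 18.9% for Des and Gpc3 and 0.0496 to 10.4% for Psd, and hold the shares of both Asc-GFP classes. At this depth a single Des, Psd or Gpc3 UMI in an Asc-GFP cell is therefore not read as expression, and the ratios between the classes are ratios of summed UMIs. The part of free RNA in the Tnnt2-high class was not tested.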

How the data were processed

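ITGA8+ aortic cells were sorted after cold enzymatic digestion and sequenced as 4 single-cell libraries (10x 3′ v3.1 kit), 1 per group, per the labels' protocols. The deposited values are UMI counts, whole numbers from Cell Ranger 7.0.0 per the file headers. Per the submitters' processing notes the build was mm10 and Seurat 4.3 was used, whose output was not used here. The sources used here do not give the strand setting.

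Cells were filtered as the report states and thinned to 8000 UMIs (seed 1), and UMIs were summed per class and divided by the class total. Levels have exact Poisson, shares exact Clopper-Pearson and ratios exact conditional binomial intervals at 95%, counting error only. Genes with a mean of at least 10 CPM over both classes were called measured, and those past 0.5 (log2 ratio, either sign) called higher or lower. With 1 library per group no test was made. No doublet caller was run, and free RNA was not removed. In Asc-GFP, 83 cells with fewer than 8 eGFP UMIs were left out. Library totals ran from 41479646 to 104691850 UMIs. Macrophage-like cells had at least 20 UMIs of the macrophage markers and under 10 of Myh11.

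Members, gene lists and named genes were chosen with earlier results of these data known. Named genes were the 12 highest and 12 lowest by the interval bound nearest 0, up to 4 of each of 26 lists by size, and the 12 leading genes of each library list, and some members of these lists are given by count only. Alternatives were other depths, seeds, thresholds, sexes and cell filters. Gene positions are from GENCODE M21 and promoters from RefSeq. The summing and intervals were tested on simulated data. Python 3.11.15, numpy 2.4.6, scipy 1.17.1, pandas 2.3.3 and matplotlib 3.10.9 were used.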

Additional observations from a re-analysis of the deposited data

Results flagged for a closer look

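For 4 of the leading genes the contrast of Tnnt2-high against Tnnt2-zero cells had opposite signs in Asc-GFP and in another population. In the pooled sexes both counting intervals were clear of 0, but not always within each sex. None of these differences was tested. Apoe had a log2 ratio of 0.75 in Asc-GFP and -0.39 in Arch-GFP. Arch-GFP female cells had 0.08 (-0.26 to 0.39) and male cells -1.12 (-1.49 to -0.77). Art3 had 0.72 in Asc-GFP and -0.25 in Root tdTomato cells. Female cells there had 0.06 (-0.22 to 0.36) and male cells -0.59 (-1.07 to -0.11). Igfbp4 had 0.53 in Asc-GFP and -0.30 in Root GFP cells. Female Root GFP cells had -0.11 (-0.46 to 0.23) and male cells -0.40 (-1.24 to 0.37). Rgs5 had -0.56 in Asc-GFP and 0.44 in Asc-RFP, with 0.23 (0.06 to 0.41) in female and 0.74 (0.55 to 0.94) in male Asc-RFP cells. Within Asc-GFP, Igfbp2 had 1.62 in female and -0.61 in male cells.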

How the results depend on the processing

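The depth limits the low genes most: Psd rests on 30 UMIs in the Tnnt2-high class. The log2 ratio of Des kept its sign in every alternative but 1, male cells, where it was -0.25. It was 0.61 with Tnnt2 of at least 2 UMIs, 1.15 with at least 5 and 1.20 in female cells. In male cells Igfbp2 was at -0.61, and at 12000 UMIs per cell Cdk16 was at 0.0030. The causes were not tested. No paired analysis was possible because each group is 1 library and the labels carry no replicate numbers. The alternative without single cells holding over 20% of a gene's UMIs was chosen after seeing the data.

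Counts by size depended on the setting. Genes at least 0.5 higher and lower among all genes, 38 and 37 as reported, were 88 and 115 at 5000 UMIs per cell, 22 and 15 at 12000, 16 and 11 with no thinning, and 13 and 9 with Tnnt2-zero cells weighted to the same depths. They were 15 and 12 with Tnnt2 of at least 2 UMIs, 118 and 100 with at least 5, 106 and 125 in female and 346 and 357 in male cells. Without cells with signs of doublets 63 were higher. They were 15 and 7 with a mean of at least 20 CPM, and 1698 and 2114 with no minimum but 3 UMIs. Root-list genes at least 0.5 higher, 14 as reported, were 9, 7, 9 and 8 under the first 4 of these settings, 5 with Tnnt2 of at least 2 UMIs, 7 with at least 20 CPM, 29 with no minimum and 9 with another seed. Asc-RFP list genes, 3 as reported, were 6 with Tnnt2 of at least 5 UMIs, 6 in female, 1 in male, 6 without doublet signs and 5 with no minimum. Arch-list genes at least 0.5 lower, 3 as reported, were 0 with Tnnt2 of at least 2 UMIs, 5 with at least 5, 10 with no minimum and 1 with another seed.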
